A study of Mus musculus with 4 samples.

Results

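The regions described here are stretches of accessible chromatin that were assigned to mouse Zfp genes, the numbered genes for zinc finger proteins, in bone marrow-derived macrophages (BMDMs). Open DNA was profiled by ATAC-seq, which marks accessible sites with the Tn5 transposase, in wild-type BMDMs from mice aged 8 to 12 weeks. All cells spent 6 days in L929 supernatant, which supplies M-CSF, before they were used. There were 2 control libraries, and 2 libraries of cells that had received IL-4 (20 ng/ml) for 1 h. IL-4 polarises macrophages to the alternative state, largely through the transcription factor STAT6. On chromosomes 1 to 19, X and Y, peaks that shared at least 1 bp were joined across libraries, which gave 60710 regions. Each region took the annotation and the gene of its highest peak. A region was kept where that gene name was Zfp followed by a number, which left 997 regions of 321 genes. The gene is the one with the nearest transcription start site (TSS), so the assignment is one of position and not of regulation.

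Most Zfp genes encode proteins with C2H2 zinc fingers, in which cysteines and histidines hold a zinc ion and each finger can read a few bases of DNA. Many of them also carry a KRAB domain, which recruits the co-repressor TRIM28 (KAP1) and sets up silent chromatin, often over retroelements. KRAB zinc finger genes arose by repeated duplication and lie in dense clusters. The symbol Zfp also covers unrelated proteins, such as the CCCH-type Zfp36 family that binds and destabilises AU-rich mRNAs. Among 395 protein-coding Zfp genes with a curated RefSeq transcript, 381 held a C2H2 pattern in the translated reference transcript, with a median of 11 fingers and up to 37. A KRAB pattern was found in 227 and not in 168. Of the 395 genes, 189 lay in 29 clusters, defined here as 3 or more Zfp genes with at most 200 kb between neighbours.

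The first sequences shown are those of Zfp promoters, from the 300 bp promoter windows of RefSeq (250 bp before to 50 bp after the start, GRCm38, the assembly behind mm10). The binding motif of Zfp143, itself a zinc finger activator of promoters, was searched as ACTACANNTCCCA on both strands, where N is any base. This motif was chosen after the commonest short words of Zfp promoters had been counted, so its share is a description. It was present in 16.0% of 331 Zfp promoter windows and in 2.25% of the 17491 windows of all protein-coding genes. Among Zfp genes with a KRAB pattern the share was 22.7%, and among those without it was 6.02%. Windows of 4 Zfp promoters with tall peaks in all 4 libraries are shown up to the base before the TSS, read along the strand of the gene, with the motif or its reverse complement in capitals. They lie at chr4:119174196-119174434 (minus strand, Zfp691), chr9:19621841-19622090 (plus strand, Zfp317), chr7:12881101-12881177 (plus strand, Zfp128) and chr7:29815907-29816071 (plus strand, Zfp790).
Zfp691: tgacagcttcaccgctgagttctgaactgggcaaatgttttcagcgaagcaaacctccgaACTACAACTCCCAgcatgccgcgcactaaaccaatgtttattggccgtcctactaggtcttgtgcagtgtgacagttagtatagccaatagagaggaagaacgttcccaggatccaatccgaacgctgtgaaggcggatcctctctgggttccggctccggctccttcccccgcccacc
Zfp317: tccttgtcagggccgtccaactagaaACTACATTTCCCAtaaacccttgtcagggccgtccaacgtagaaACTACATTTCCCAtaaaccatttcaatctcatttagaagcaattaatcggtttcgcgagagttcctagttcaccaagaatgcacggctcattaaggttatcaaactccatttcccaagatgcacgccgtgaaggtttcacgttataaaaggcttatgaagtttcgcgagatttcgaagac
Zfp128: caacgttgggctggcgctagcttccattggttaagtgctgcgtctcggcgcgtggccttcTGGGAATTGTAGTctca
Zfp790: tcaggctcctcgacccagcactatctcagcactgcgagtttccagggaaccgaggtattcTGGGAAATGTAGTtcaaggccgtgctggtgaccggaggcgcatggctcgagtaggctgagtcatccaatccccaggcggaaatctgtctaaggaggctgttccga

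Zfp317 held the motif in a pair of near copies within the shown stretch. The heights of the 4 promoters are given in the order control 1, control 2, IL-4 1 and IL-4 2, and height is the deposited peak score, taken to be −log10 q of each peak. They were 39.3, 34.9, 35.1 and 26.9 for Zfp691, and 34.0, 26.6, 43.2 and 28.2 for Zfp317. They were 37.1, 27.3, 43.1 and 20.6 for Zfp128, and 31.9, 16.4, 23.1 and 25.8 for Zfp790. Control and IL-4 libraries overlapped for each of the 4 genes.

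A second set of sequences belongs to Zfp386, the gene with the most regions. Of its 81 regions, 79 lay in the immunoglobulin heavy chain locus, which ends next to Zfp386 on chromosome 12. This locus holds the V segments that B cells join to D and J segments. The joining signal at the end of a V segment begins with the heptamer CACAGTG, which is in capitals in the segments shown, read along the strand of the segment (GRCm38). They lie at chr12:115312119-115312205 (Ighv1-58), chr12:114991061-114991147 (Ighv1-47) and chr12:115158356-115158442 (Ighv1-53), all on the minus strand, and each is inside a Zfp386 region found in all 4 libraries.
Ighv1-58: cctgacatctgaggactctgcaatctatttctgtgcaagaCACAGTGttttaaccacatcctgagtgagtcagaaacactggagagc
Ighv1-47: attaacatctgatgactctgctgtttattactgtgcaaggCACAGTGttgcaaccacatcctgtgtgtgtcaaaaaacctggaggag
Ighv1-53: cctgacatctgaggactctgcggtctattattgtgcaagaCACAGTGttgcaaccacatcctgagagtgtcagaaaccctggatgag

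The third set shows the STAT6 motif, a palindrome searched as TTCNNNNGAA, in regions that had a peak in both IL-4 libraries and in neither control library (IL-4-only regions). The stretches are 70 bp of the plus strand of GRCm38 with the motif in capitals. They lie at chr14:65389931-65390000 (an intron near Zfp395), chr11:121486110-121486179 (an intron near Zfp750), chr10:67742994-67743063 (intergenic, Zfp365) and chr2:170155679-170155748 (intergenic, Zfp217).
Zfp395: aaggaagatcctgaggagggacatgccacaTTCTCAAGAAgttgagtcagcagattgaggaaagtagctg
Zfp750: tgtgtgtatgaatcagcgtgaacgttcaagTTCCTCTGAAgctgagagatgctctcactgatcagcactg
Zfp365: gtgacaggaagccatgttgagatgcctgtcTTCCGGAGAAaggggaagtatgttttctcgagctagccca
Zfp217: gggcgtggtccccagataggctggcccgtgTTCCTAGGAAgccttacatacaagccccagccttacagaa

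The libraries held 39462 to 45250 peaks each on these chromosomes, and IL-4 replicate 2 had the fewest peaks. Sequencing depth is unknown because the deposited lists hold no reads. A height grows with depth, so heights of different libraries are compared only with this limit. Promoter peaks were present in all 4 libraries at 8 of 10 macrophage marker genes, among them Spi1, Cebpa, Adgre1 and Cd68, whereas Csf1r and Itgam had none. Of the 5 T cell markers, Cd2 had a promoter peak in 1 control library. Of the B cell genes Cd79a, Cd79b, Pax5 and Ms4a1, only Ms4a1 had one, in both control libraries. In all 4 libraries 1 of 5 neutrophil markers (S100a8) had a promoter peak. None of the 5 fibroblast markers had one, and 2 of 5 dendritic cell markers had one in 3 libraries and none had one in IL-4 replicate 2.

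Zfp regions sat at promoters more often than the regions of other genes. HOMER places a region at a promoter when it lies from 1000 bp before to 100 bp after a TSS, and any other region is called distal here. Of the 997 Zfp regions, 290 (29.1%) were at promoters, against 11125 of 59713 regions of other genes (18.6%). The 707 distal Zfp regions comprised 416 intergenic and 248 intronic regions, 21 in 5′ UTRs, 9 in exons, 8 at gene ends, 3 in 3′ UTRs and 2 in non-coding transcripts. Counted in each library on its own, Zfp promoters made up 34.2% of 786 Zfp peaks in control replicate 1 (95% Wilson interval 31.0 to 37.6%) and 35.8% of 726 in control replicate 2 (32.4 to 39.4%). The share was 34.3% of 772 peaks in IL-4 replicate 1 (31.1 to 37.7%) and 36.9% of 731 in IL-4 replicate 2 (33.5 to 40.5%), and these intervals cover counting error only. For other genes the share ran from 22.6% to 24.3%. The Zfp share was higher in 4 of 4 libraries, by 11.6 ± 1.15 percentage points (SD, n = 4 libraries). The exact sign-flip permutation test over the 4 libraries gave p = 0.125 (two-sided), which is the smallest it can give, and 0.2 after Benjamini-Hochberg adjustment over the 8 permutation tests of the report. The test cannot reach 0.05 in this design.

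The promoter share depends on how a promoter is defined. A further 110 distal Zfp regions lay within 1 kb of the TSS that HOMER reported, 85 of them in introns, and counting by this distance put 40.1% of the Zfp regions at promoters. A GENCODE start site of any gene lay within 1 kb of 257 distal regions, and for 136 of them it belonged to the named Zfp gene itself. The nearby start belonged to other genes only for 121 regions, including immunoglobulin segments for 52, long non-coding transcripts for 33 and protein-coding genes for 20. The other 450 distal regions had no such start. Distal regions spread far from the genes: 118 lay 1 to 10 kb from the TSS, 215 lay 10 to 50 kb, 96 lay 50 to 100 kb and 168 lay beyond 100 kb, of which 72 were in the heavy chain locus.

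Zfp promoter peaks were taller than distal Zfp peaks in every library. Their median height was 12.8 and 12.2 in control replicates 1 and 2 and 11.6 and 9.48 in IL-4 replicates 1 and 2. Distal Zfp peaks had median heights of 7.39, 6.36, 6.62 and 5.85 in the same order. The difference of the medians was 0.81 ± 0.10 on the log2 scale (SD, n = 4 libraries), higher at promoters in 4 of 4 libraries (exact sign-flip permutation test, p = 0.125, the smallest possible, adjusted p = 0.2). With scores of at least 5 only, it was 0.52. Promoters of other genes had median heights of 11.5, 10.9, 10.9 and 9.18, so Zfp promoters were the taller ones in 4 of 4 libraries, by 0.11 ± 0.05 (log2, SD, n = 4; exact sign-flip permutation test, p = 0.125, the smallest possible, adjusted p = 0.2). With scores of at least 5 only, this difference was 0.06. It was small beside the spread among Zfp promoters, whose quartiles in control replicate 1 were 7.03 and 20.7. Distal peaks of other genes had medians from 5.75 to 7.20.

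**Figure D1:**
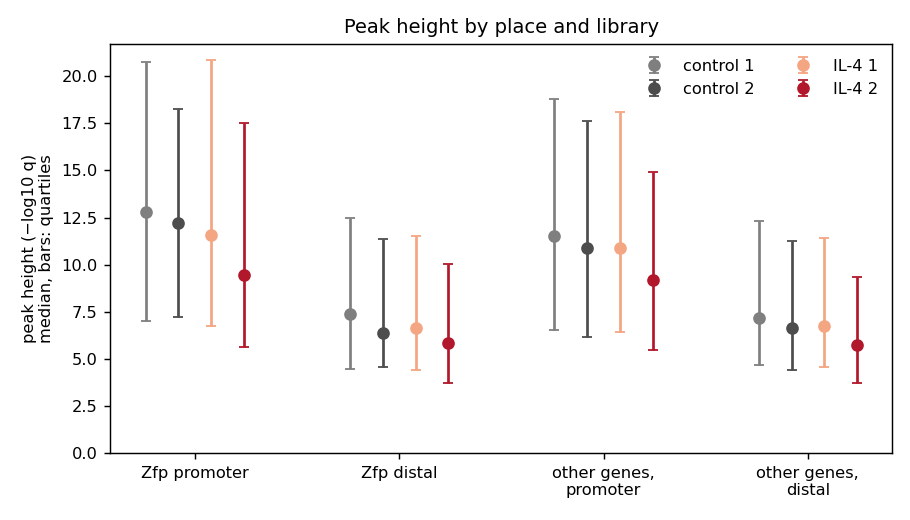
Median peak height (−log10 q, vertical axis) of promoter and distal peaks of Zfp genes and of all other genes in each of the 4 libraries. Points are medians and bars run from the lower to the upper quartile, and promoter medians (9.18 to 12.8) sit above distal medians (5.75 to 7.39) in every library, with IL-4 replicate 2 lowest in each class.

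Zfp promoters were also found repeatedly. A peak was present in all 4 libraries at 213 of the 290 promoter regions (73.4%) and at 261 of the 707 distal regions (36.9%). For other genes these shares were 69.3% and 35.5%. Only 31 Zfp promoter regions were found in a single library, compared with 211 distal regions. Promoter regions had a median length of 363 bp and distal regions of 196 bp.

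Genes were then counted by whether any peak overlapped the window from 1000 bp before to 100 bp after one of their starts, whatever gene HOMER gave the peak. By this count 257 of the 395 Zfp genes (65.1%) had a promoter peak in all 4 libraries, 57 in 1 to 3 libraries and 81 (20.5%) in none. Of the 20605 other protein-coding genes, 41.4% had a promoter peak in all 4 libraries and 48.3% in none. In single libraries, 71.4% to 74.4% of Zfp genes and 45.1% to 47.9% of other genes had a promoter peak, a difference of 26.1 ± 0.63 percentage points (SD, n = 4 libraries), with Zfp genes higher in 4 of 4 (exact sign-flip permutation test, p = 0.125, the smallest possible, adjusted p = 0.2). The group of other genes includes all tissue-restricted families, and the 2 groups were not matched for expression.

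KRAB zinc finger genes had a promoter peak more often than the Zfp genes without a KRAB pattern. The shares were 79.7% against 64.9% in control replicate 1, 78.9% against 64.3% in control replicate 2, 77.5% against 70.2% in IL-4 replicate 1 and 74.9% against 66.7% in IL-4 replicate 2. The difference was 11.2 ± 4.03 percentage points (SD, n = 4), higher in 4 of 4 libraries (exact sign-flip permutation test, p = 0.125, the smallest possible, adjusted p = 0.2). Where a peak was present, its median height was 16.4, 14.6, 15.4 and 13.7 at KRAB genes and 13.1, 11.9, 11.5 and 9.20 at the others, in the order control 1, control 2, IL-4 1 and IL-4 2. KRAB and clustering go together, since 149 of the 189 clustered genes had a KRAB pattern against 78 of the 206 unclustered ones. A peak in all 4 libraries was present at 73.8% of the clustered KRAB genes, 65.4% of the unclustered KRAB genes, 67.5% of the clustered genes without KRAB and 53.9% of the unclustered genes without KRAB. The promoters also differed in base composition, with a median GC content of 52.0% for KRAB genes, 61.3% for the others and 56.3% for all protein-coding genes. The part of clustering and of base composition in the KRAB difference was not tested.

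**Figure D2:**
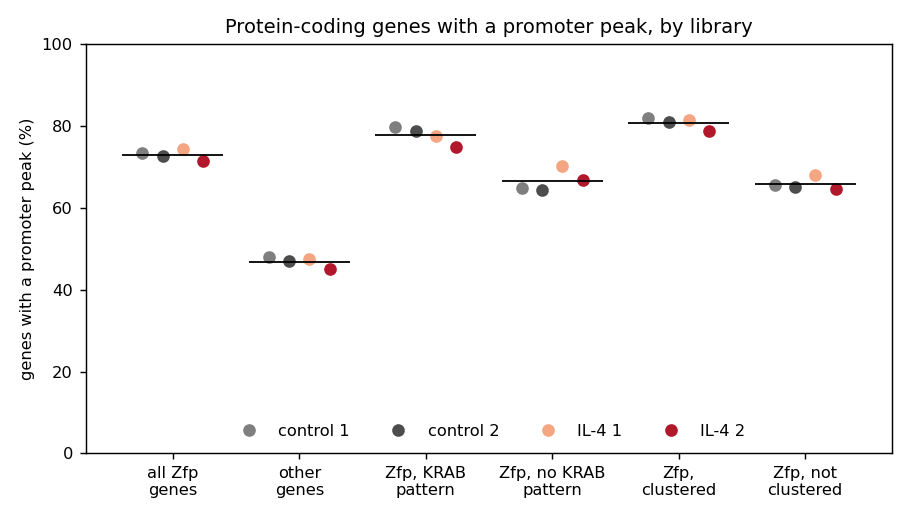
Percent of protein-coding genes with a promoter peak (vertical axis) in each library, for all Zfp genes, all other genes, and Zfp genes split by KRAB pattern and by position in a cluster. Points are libraries and lines their means. Zfp genes lie between 71.4% and 74.4%, other genes between 45.1% and 47.9%.

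The clusters differed from one another. In the largest, on chromosome 13 (first to last TSS, chr13:67061170-67813816), all 23 genes had a KRAB pattern and 21 had a promoter peak in all 4 libraries. In a cluster on chromosome 17 (chr17:21383748-21962559), 12 of 13 genes had one in all 4, including Zfp51, Zfp52, Zfp53 and Zfp54, and the median height at its genes ran from 21.5 to 27.5 across libraries. By contrast, only 3 of 9 genes of a cluster on chromosome 4 (chr4:147124882-147848418) had a promoter peak in all 4, and 5 had none, namely Zfp534, Zfp979, Zfp982, Zfp985 and Zfp988. A cluster on chromosome 7 around Zfp180 (chr7:24081897-24587641) likewise had 4 of 12 genes with a peak in all 4 and 5 with none. Zfp235 was among these 5 by the window count, although HOMER named 1 promoter region for it, found in all 4 libraries. Genes within such clusters share near-identical sequence, so reads that map to several places can raise or remove a peak at single members, and this was not tested.

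The 8 tallest Zfp promoter regions found in all 4 libraries had heights from 29.1 to 49.9. Zfp53 was highest, with 49.9 and 46.7 in control against 34.9 and 35.3 in IL-4. Zfp869 followed with 41.2 and 37.2 against 48.2 and 38.5, and Zfp931 with 37.1 and 42.5 against 47.5 and 36.2. At Zfp53 both control values were above both IL-4 values, while at the other 2 the groups overlapped. Zfp958 had 36.5 and 38.3 in control and 45.0 and 40.6 in IL-4, and Zfp189 had 45.5 and 35.9 against 37.8 and 39.4. Zfp959 had 37.8 and 32.8 against 40.7 and 34.2, and Zfp386 had 37.3 and 31.9 at its own promoter against 41.7 and 34.8. Zfp939 had 29.1 and 31.6 in control against 40.2 and 43.1 in IL-4, so both its IL-4 values were above both control values, as at Zfp958. Among all 25442 regions found in the 4 libraries, both IL-4 heights were above both control heights in 8.83% and below them in 29.3%, and among the 474 Zfp regions of this kind in 10.8% and 24.7%. None of the 8 promoters passed the limma threshold given below.

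The 4 lowest promoter regions found in all libraries were named for Zfp82, Zfp827, Zfp949 and Zfp516. Zfp82 had 5.95 and 5.08 in control and 8.23 and 2.49 in IL-4. Zfp827 had 6.07 and 6.78 against 11.0 and 1.35. Zfp949 had 4.23 and 5.98 against 2.12 and 5.05, and Zfp516 had 5.64 and 1.99 against 2.15 and 5.17. Zfp949 had 2 promoter regions and Zfp516 had 3, and the values are those of a single region. At Zfp82 and Zfp827 the IL-4 libraries gave both the highest and the lowest value of the gene, so the groups overlapped. Over the 213 Zfp promoter regions found in all 4 libraries, heights in control replicate 1 ran from 2.70 to 49.9 with a median of 15.8.

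**Figure D3:**
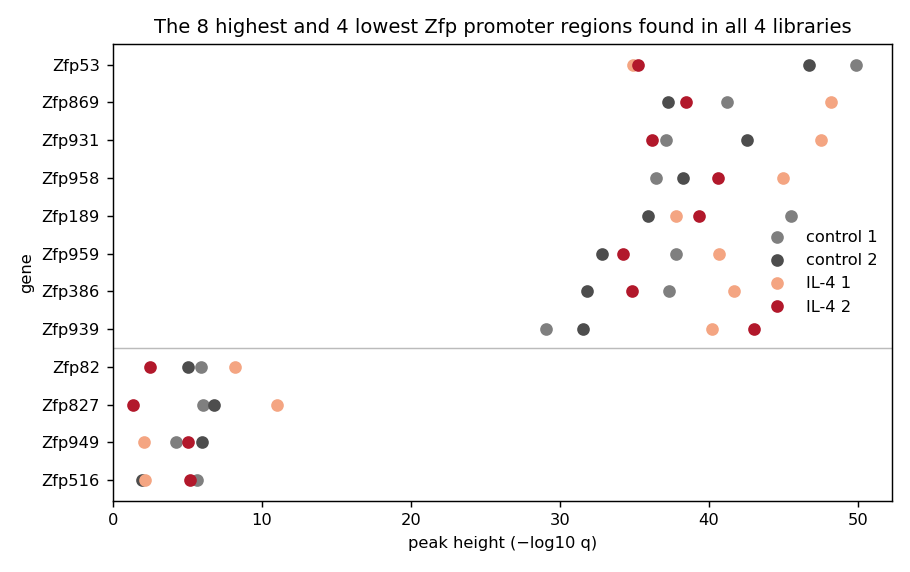
Peak height (−log10 q, horizontal axis) in each library at the 8 highest and the 4 lowest Zfp promoter regions found in all 4 libraries, ordered by mean log2 height. Each point is a library, and the highest set runs from 29.1 to 49.9 while the lowest set stays at or under 11.0.

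The Zfp143 motif shown above was held by 51 of the 290 Zfp promoter regions (17.6%) and by 3.51% of the promoter regions of other genes. Regions of the 2 sets had median lengths of 363 and 339 bp. Of the 51 regions with the motif, 43 (84.3%) had a peak in all 4 libraries, against 71.1% of the 239 without. Their median heights were 13.3, 13.3, 14.1 and 12.1 with the motif and 13.2, 12.3, 12.9 and 10.5 without, in the order control 1, control 2, IL-4 1 and IL-4 2. Lengths of Zfp promoter regions with and without the motif were not compared. Zfp143 itself had a promoter peak of 27.5 and 29.7 in control and 37.0 and 22.9 in IL-4. The ETS motif CCGGAAG was present in 21.5% of Zfp promoter windows against 11.8% of all windows, the CCAAT box in 48.3% against 39.0% and the TATA box in 7.25% against 13.3%, each searched on both strands.

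Of the 6 highest distal regions, 3 lay near the start of another transcript or V segment (BC002059, Ighv1-58 and Gm5165). The first, at chr17:16951020-16951718, 112725 bp upstream of Zfp960, lay at the start of BC002059 and had heights of 43.5 and 40.5 in control and 32.1 and 38.6 in IL-4. The second lay 735551 bp upstream of Zfp386 at Ighv1-58, with 37.1 and 40.1 against 39.4 and 34.2. The third lay 420098 bp upstream of Zfp462, with 37.3 and 33.8 against 46.1 and 34.1, and no other annotated start was near it. The other 3 were named for Zfp97 (40.5 and 28.9, 37.6 and 36.1, at Gm5165), Zfp960 (29.3 and 38.5, 42.4 and 31.1) and Zfp119b (38.1 and 31.5, 39.2 and 27.7). The Zfp119b region was 689 bp long. It was annotated to the first intron, 104 bp past the TSS, just past the 100 bp that HOMER counts as promoter.

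Zfp386 held 81 regions, of which 79 lay 44.6 to 1116.4 kb from its TSS inside the heavy chain locus (chr12:113254830-116010093). Of the 79, 58 had their centre within 3 kb of the start of the nearest V segment. The centres of 44 regions lay 300 to 600 bp from the start of a V segment, at 44 different segments. This window was chosen after the data were seen, and the V genes of the locus had a median length of 443 bp. Of these 44 regions, 32 were found in all 4 libraries. The heptamer was present in 37 of the 79 regions (46.8%) and in 7.81% of all 60710 regions, and 35 of the 37 belonged to the 44. The median length was 206 bp for the 79 and 209 bp for all regions.

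**Figure D4:**
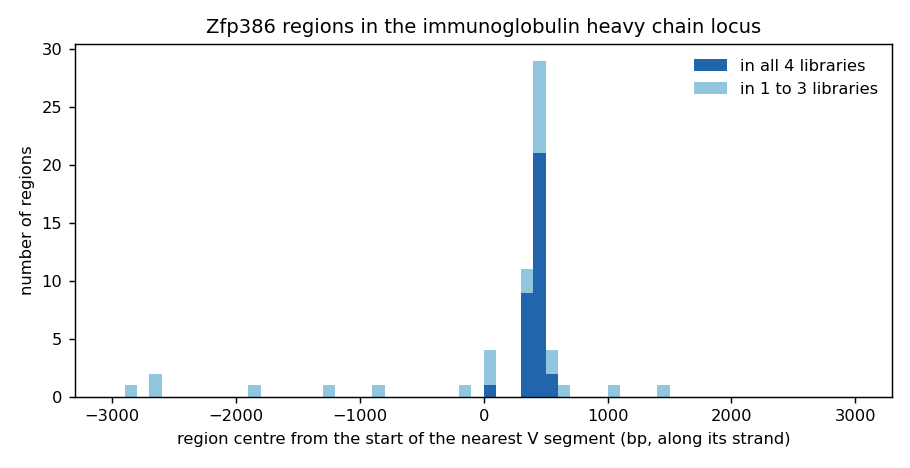
Number of Zfp386 regions in the heavy chain locus (vertical axis) by the distance of the region centre from the start of the nearest V segment, in bins of 100 bp along the strand of the segment. The 58 of 79 regions within 3 kb are shown, dark for regions found in all 4 libraries, and 44 gather between 300 and 600 bp.

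Median heights of the heavy chain regions were 10.4 and 8.97 in control and 10.6 and 8.07 in IL-4, over 57, 55, 58 and 62 regions with a peak. The highest values were 37.1, 40.1, 39.4 and 34.2. Of the 79 regions, 37 had a peak in all 4 libraries, 4 were IL-4-only and 1 was control-only. Over all 60710 regions, 41.9% had a peak in all 4 libraries, 2.53% were IL-4-only and 4.33% were control-only. V segments are related copies, so a read may map to several of them, and this was not tested. The B cell genes Cd79a, Cd79b and Pax5 had no promoter peak in any library, and Ms4a1 had one in the 2 control libraries. Without these 79 regions the promoter share of Zfp regions was 31.6%.

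After Zfp386, the genes with the most regions were Zfp608 (44), Zfp217 (23), Zfp36l1 (22), Zfp36l2 (17) and Zfp407 (17), and the 6 genes together held 20.5% of all Zfp regions. At the other end, 121 genes had a single region, and 68 of the 321 genes had distal regions only. Zfp608, a regulator of Rag gene expression in thymocytes, had no region annotated as promoter, although a peak overlapped its promoter window in every library (7.69 and 2.67 in control, 4.01 and 4.97 in IL-4). Its regions reached 634.4 kb from the TSS, 19 of 44 were in all 4 libraries, and 3 were IL-4-only and 2 control-only. Over all 60710 regions, 41.9% were in all 4 libraries, 2.53% were IL-4-only and 4.33% were control-only. Zfp36l1 and Zfp36l2, RNA-binding proteins that promote mRNA decay, had 21 and 15 distal regions reaching 401.7 and 105.4 kb.

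The 40 genes of 6 groups with known roles were looked at next. Of the CCCH proteins, Zfp36l2 had a promoter peak in all 4 libraries (18.4 and 17.0 in control, 18.2 and 11.8 in IL-4). Zfp36l1 had one in 3 libraries (6.98 and 5.01 in control, 4.36 in IL-4 replicate 1), Zfp36, which encodes tristetraprolin, in IL-4 replicate 2 only (4.58), and Zfp36l3 in none. The KRAB repressors of imprints and retroelements had promoter peaks in all 4 libraries at 5 of 6 genes. Zfp932 had 26.3 and 30.4 in control and 29.5 and 29.3 in IL-4, Zfp708 had 30.2 and 32.1 against 32.4 and 27.8, and Zfp809, which silences retroviral DNA, had 21.2 and 13.2 against 24.3 and 18.3. Zfp445, a guardian of imprints, had 17.6 and 4.15 against 10.5 and 14.1. Zfp57, the other imprint factor, had none.

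Of 8 promoter and chromatin factors, 6 had a promoter peak in all 4 libraries, and none of the 8 was without one. Zfp384 had 22.8 and 17.6 in control and 24.5 and 20.8 in IL-4, and Zfp281 had 13.9 and 12.8 against 14.7 and 10.6. Zfp410, an activator of Chd4, lacked one in control replicate 2 and had 2.49 to 6.11 elsewhere. Zfp217, a partner of co-repressor complexes, had none in control and 7.62 and 7.48 in IL-4. Of 8 genes for RNA, ribosome, ubiquitin and mitosis factors, 6 had one in all 4, led by Zfp622, a factor of ribosome maturation, with 32.4 and 38.4 in control and 28.1 and 28.2 in IL-4. Zfp598, the ubiquitin ligase that senses collided ribosomes, had 16.2 and 16.8 against 17.4 and 11.6. In this group, Zfp638 had none and Zfp106 had one in IL-4 replicate 1 only (3.29).

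Among lineage factors of other tissues, a promoter peak was present in all 4 libraries at 2 of 8 genes and in none at 5. The 5 were Zfp42, the pluripotency marker Rex1, the preadipocyte factor Zfp423, Zfp467, Zfp462 and Zfp503. Zfp521 had one in IL-4 replicate 1 only (3.28). The genes with one in all 4 were Zfp703 (11.8 and 9.37 in control, 9.29 and 19.6 in IL-4) and Zfp516 (9.62 and 6.82, 3.70 and 5.17), a factor of brown fat. These values are of the highest peak over all starts of the gene in each library. Zfp462 still had 15 distal regions and Zfp503 had 5. Of 6 immune and haematopoietic factors, 4 had a promoter peak in all 4, among them Zfp318, needed for IgD expression, with 15.8 and 9.32 in control and 12.8 and 11.8 in IL-4. Zfp366 (DC-SCRIPT), a dendritic cell factor, had none, and Zfp609 had one in the IL-4 libraries only (5.27 and 4.69).

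Next, control and IL-4 libraries were compared. The number of Zfp peaks was 756.0 ± 42.4 in control and 751.5 ± 29.0 in IL-4 libraries (SD, n = 2 each), a difference of −4.5 (exact permutation test, p = 1.0). The promoter share of Zfp peaks was 35.0 ± 1.12% and 35.6 ± 1.84% (exact permutation test, p = 0.6667). Median log2 height of Zfp promoter peaks was 3.64 ± 0.05 in control and 3.39 ± 0.21 in IL-4, lower by −0.25 (exact permutation test, p = 0.3333, which is the smallest this design allows). Adjusted over the 8 permutation tests, these exact p-values were 1.0, 0.7619 and 0.4444, and all tests were two-sided. The first 2 differences changed sign when 1 library was left out: the difference in peak number became 25.5 without control replicate 1 and 16 without IL-4 replicate 2, and the difference in promoter share became −0.18 and −0.69 percentage points. The height difference kept its sign but was −0.40 without IL-4 replicate 1, −0.11 without IL-4 replicate 2 and −0.08 with scores of at least 5. IL-4 replicate 2 had the lowest median height of promoter peaks and of distal peaks, Zfp or not.

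Heights of single regions were compared by limma on log2, quantile-normalised heights of the 25442 regions found in all 4 libraries, of which 474 were Zfp regions (213 promoter, 261 distal). At a Benjamini-Hochberg adjusted p of at most 0.05, limma called 6 regions of all (0.0236%), 4 higher and 2 lower in IL-4, and none of the 474 Zfp regions. At an unadjusted p under 0.05, 32 Zfp regions (6.75%) passed, 21 higher and 11 lower. Of all 25442 regions, 2106 (8.28%) passed, 1049 higher and 1057 lower. Zfp promoters had a median log2 change of 0.06 and all promoters of 0.04. Distal Zfp regions had a median of 0.02 and all distal regions of −0.03. Without quantile normalisation, the 2 Zfp medians were −0.11 and −0.20, and leaving out 1 library turned the promoter median to −0.007 (without control replicate 1) and the distal median to −0.056 (without control replicate 2). The direction of these small medians therefore depends on the scaling and on single libraries.

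The 5 Zfp regions with the lowest p in each direction are given although none passed (limma, adjusted p from 0.2683 to 0.3222 for the higher and from 0.3029 to 0.4508 for the lower set). An intronic region named for Zfp277 had heights of 8.07 and 3.78 in control and 18.8 and 11.1 in IL-4, a log2 change of 1.60 (SE 0.48, n = 2 each) by limma. An intergenic region 65628 bp upstream of Zfp608 had 7.66 and 3.78 against 12.1 and 16.4 (log2 change 1.59). The promoter of Zfp655 had 11.2 and 14.6 against 24.7 and 21.6 (log2 change 1.05). Regions of Zfp493, in the first intron (10.3 and 9.09, 19.4 and 18.0), and of Zfp831 (14.0 and 9.46, 20.2 and 21.4) were higher in IL-4 as well. In all 5, both IL-4 values were above both control values, which follows from their choice by p. Such a separation was seen in 51 of the 474 Zfp regions (10.8%) and in 8.83% of all regions.

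In the other direction, the first was a 534 bp region annotated to the 5′ UTR of Zfp202. It had 23.8 and 18.9 in control and 11.2 and 5.42 in IL-4. Its log2 change by limma was −1.23 (SE 0.39, n = 2 each). Regions 33822 bp upstream of Zfp362 (27.1 and 21.2, 7.96 and 12.0) and 80247 bp upstream of Zfp438 (16.8 and 20.0, 7.30 and 7.30) had lower values in IL-4. The same held for a region 13023 bp upstream of Zfp395 (12.7 and 10.9, 4.76 and 3.08) and one 87244 bp upstream of Zfp36l2 (22.2 and 17.6, 10.4 and 7.24). The groups did not overlap in any of the 5, again by their choice, and 117 of the 474 Zfp regions (24.7%) and 29.3% of all regions were separated in this direction. Of the 7 Zfp36l2 regions in all 4 libraries, 6 had a log2 change below 0, from −0.96 to 0.02 over the 7, none past the threshold. The 7 include the region above, which was chosen by its p. Over all 25442 regions the median log2 change was −0.001.

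**Figure D5:**
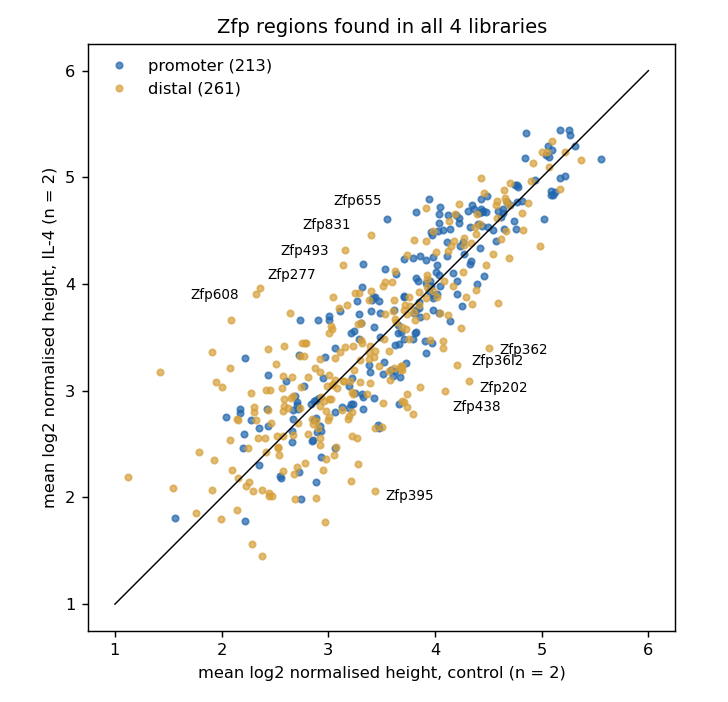
Mean log2 normalised height of the 474 Zfp regions found in all 4 libraries, control on the horizontal and IL-4 on the vertical axis (n = 2 libraries each), with promoter and distal regions in different colours and the line of equality. The 10 labelled regions are those with the lowest limma p in each direction, and none passed an adjusted p of 0.05.

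Regions found in 1 group only were few. Of the 997 Zfp regions, 28 (2.81%) were IL-4-only and 40 (4.01%) were found in both control libraries and neither IL-4 library (control-only). Over all 60710 regions these shares were 2.53% and 4.33%, close to those of the Zfp regions. The group-only regions were low, with median heights of 5.34 (IL-4-only, range 2.36 to 12.9) and 4.88 (control-only, range 1.50 to 13.5). The IL-4-only set held 4 promoters and 24 distal regions, and the control-only set 8 and 32.

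Ranked by the lower of the 2 heights, the first IL-4-only region was a heavy chain region of Zfp386 with 12.9 and 11.3. It was followed by an exon of Zfp407 (11.1 and 9.50) and the promoter of Zfp217 (chr2:170131066-170131274, 7.62 and 7.48). A region annotated to a 3′ UTR, 3865 bp upstream of the TSS of Zfp609, had 7.59 and 6.38. An intergenic region of Zfp951 had 12.2 and 6.29 and an intron named for Zfp791 had 5.34 and 9.34. By the same order the first control-only region was the promoter of Zfp428 (6.29 and 9.22). Regions of Zfp184 (5.85 and 7.33), Zfp644 (7.60 and 5.77), Zfp395 (5.44 and 5.91), Zfp618 (5.91 and 5.27) and Zfp941 (7.33 and 5.14) followed. A missing peak means only that the height did not reach the threshold of that library, and a value for such a library was not used here.

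The STAT6 motif was present in 8 of the 28 Zfp IL-4-only regions (28.6%) and in 1 of the 40 control-only regions (2.50%). Of all regions 7.22% held it, as did 7.92% of distal Zfp regions and 30.9% of the IL-4-only regions of other genes. Median lengths were 189 bp for the Zfp IL-4-only, 165 bp for the Zfp control-only and 209 bp for all regions. The 8 regions belonged to Zfp365 (4.11 and 3.73), Zfp750 (5.34 and 4.93), Zfp395 (7.96 and 5.05), Zfp217 (3.46 and 5.49), Zfp518b (4.11 and 3.11), Zfp407 (11.1 and 9.50) and, with 2 regions, Zfp608 (9.35 and 5.05, 6.62 and 3.73). The Zfp407 region lay in an exon and all others were intergenic or intronic. The Zfp217 region with the motif lay 13016 bp upstream of its TSS and was separate from the IL-4-only promoter of the same gene. The shares are descriptions, since a match to these letters is not a bound site.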

How the data were processed

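ATAC-seq peak lists of 4 libraries were used, 2 control and 2 IL-4, which the study describes as independent biological replicates. Per the submitters' processing notes, BWA 0.7.10, SAMtools 0.1.19, HOMER 4.2, MACS2 2.0.10 and the mm10 build were used. The authors called peaks in each library, removed blacklisted regions and annotated them with HOMER. Handling of the Tn5 shift and of duplicates is not given in the sources used here. The deposited peak score was read as −log10 of the q-value, because its lowest value was 1.3 (1.32 in IL-4 replicate 1), near a q of 0.05, although the methods name 0.01. Scores under 2 were held by 4 to 12 Zfp peaks per library. The deposited distance to the TSS is in bp. Depth is unknown, so each value rests on 1 score per library.

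Peaks were merged with Python 3.11.15 (bedtools 2.31.1 gave the same number of regions). A region took the highest score of each library. Heights were log2-transformed without a pseudocount, quantile-normalised and fitted with limma 3.58.1 in R 4.3.3 (trend, threshold 0.05). The fit was tested on simulated data with larger changes than any named here, and its yield for smaller changes was not tested. Exact permutation tests were two-sided, over libraries. Gene promoters were windows from 1000 bp before to 100 bp after each start of curated RefSeq transcripts of GRCm38.p6. KRAB and C2H2 patterns were searched in translated transcripts.

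The members, gene lists and rules were chosen with earlier results of these data known. Named regions were the 8 highest and 4 lowest promoter and 6 highest distal regions in all 4 libraries, the 5 lowest limma p in each direction, up to 6 group-only regions each way, the 6 genes with most regions and the 40 listed genes. The heavy chain and Zfp143 descriptions were added after the data were seen. Alternatives were score minimums of 2 and 5, other merging, a distance rule for promoters, other scaling, a replicate block, removal of the CCCH genes and leaving out each library. Some cell type marker results are not reported here.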

Additional observations from a re-analysis of the deposited data

How the results depend on the processing

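The promoter share of Zfp regions (29.1%) became 33.7% with scores of at least 5, 40.1% with a start site distance of at most 1000 bp, 54.7% with any GENCODE start site and 31.6% without the heavy chain locus, the last 2 chosen after seeing the data. It was 29.9 to 30.9% when 1 library was left out. Control-only regions fell to 26 when peaks within 500 bp were merged. Leaving out 1 library gave 47 to 98 IL-4-only and 68 to 111 control-only regions, since 1 library of a group then suffices. The median log2 change of Zfp promoters (0.06) was 0.10 with merging within 500 bp, 0.13 with median centring, −0.11 without normalisation and −0.007 to 0.088 without 1 library. That of distal regions (0.02) was −0.20 without normalisation, and ran from −0.056 (without control replicate 2) to 0.115 (without control replicate 1) when 1 library was left out. The IL-4 difference in Zfp promoter height (−0.25) ran from −0.398 to −0.106 without 1 library and was −0.079 with scores of at least 5. That minimum also lowered the promoter minus distal height difference from 0.81 to 0.52 and the Zfp minus other promoter height difference from 0.11 to 0.06. The IL-4 difference in the number of Zfp peaks ran from −34.5 to 25.5 and that in promoter share from −0.69 to 1.92 percentage points without 1 library, and both changed sign without control replicate 1 (25.5, −0.18) and without IL-4 replicate 2 (16, −0.69). limma called 0 Zfp regions under every setting run.

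The labels number the replicates alike in both groups, but nothing says that a number marks shared mice. Deviations of libraries with the same number correlated with r = 0.01 over 25442 regions. With the replicate block, the differences in peak number, promoter share and promoter height were −4.5, 0.61 and −0.25, and limma again called 0 Zfp regions. The 5 differences between classes of peaks or genes kept their direction in every library under every alternative run. Unknown depth limits all comparisons of height between libraries.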

Other observations

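The 997 Zfp regions were spread unevenly over the chromosomes. Chromosome 7 held 165 regions (16.5%) and 93 of the 395 protein-coding Zfp genes, and chromosome 17 held 107 regions and 46 genes. Chromosome 12 held 110 regions but only 6 Zfp genes, and 79 of its regions were those of Zfp386 in the heavy chain locus. Chromosome 18 held 109 regions and 11 Zfp genes, with 44 regions at Zfp608 and 17 at Zfp407. By contrast, 9 Zfp genes of chromosome X had 7 regions. A start site of another protein-coding gene on the opposite strand lay within 1 kb of 6.1% of Zfp genes and 9.9% of other genes.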
